A study of Mus musculus with 4 samples.

Results

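The genes described here encode the machinery by which antigen-presenting cells display peptides on MHC class II. They are 10 genes, of 19946 tested, that were chosen by function and found through the platform's annotation of the probe sets, each by a single probe set. They fall into the class II chains *H2-Aa*, *H2-Ab1*, *H2-Eb1* and *H2-Eb2*, the loading factors *Cd74*, *H2-DMa*, *H2-Oa*, *H2-Ob* and *Ifi30*, and the transactivator *Ciita*. Their expression was compared between alveolar macrophages (AM) of TREM2-/- and wild type mice, to ask how loss of TREM-2, a myeloid surface receptor, alters the resting macrophage transcriptome. AM, the resident phagocytes of the airspace, were recovered by bronchoalveolar lavage from healthy, untreated mice of 8 to 10 weeks. Each Affymetrix mouse gene array received total RNA pooled from mice, with 2 arrays for TREM2-/- AM and 2 for WT AM. TREM2-/- mice (*Trem-2*-/- below) had been backcrossed 10 times to C57/Blk6, and WT mice were C57/Blk6. The paper states that WT mice came from Charles River and that all mice were bred in the same animal facility. It does not say that the genotypes were littermates. The backcross had been followed by typing of markers across the genome, and the strain from which the chromosome 17 segment around *Trem2* came is not given in the sources used here. Any strain difference that remained elsewhere in the genome cannot be told apart from genotype in this design.

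A class II molecule pairs an alpha with a beta chain. In mice, *H2-Aa* and *H2-Ab1* form I-A, and *H2-Eb1* is the beta chain of I-E, whose alpha chain gene *H2-Ea* is inactive in the C57BL/6 strain. New chains bind the invariant chain, encoded by *Cd74*, which fills the groove and guides them to endosomes. There H2-DM exchanges its remnant for antigenic peptide, H2-O restrains H2-DM, and the reductase GILT, encoded by *Ifi30*, opens disulphide bonds of antigens. CIITA, induced by interferon-gamma in macrophages, switches on class II genes without binding DNA itself, through a complex assembled on their X and Y promoter boxes. Resting mouse AM are known for low surface class II compared with dendritic cells.

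These boxes are shown because they are the promoter feature the family shares. RefSeq promoter windows of build GRCm38.p6 ran from 250 bases before to 50 bases after a gene start. They were available for 7 of the 10 genes (*H2-Aa*, *H2-Eb1*, *H2-Eb2*, *H2-DMa*, *H2-Oa*, *H2-Ob* and *Ifi30*). *H2-Ab1*, *Cd74* and *Ciita* had no window among those used here, so their promoters were not searched. The motif searched was GCAAC, the core of the X box, followed after 20 to 35 bases by TGATTGG, which holds the inverted CCAAT of the Y box, on both strands. Spacing and letters were chosen after these windows had been read. The pair was found in 5 of the 7 genes with a window, and in 47 of all 32851 promoter windows (0.143%). GCAAC alone was in 35.2% and TGATTGG alone in 7.82% of windows. The following stretches, 5′ to 3′ on the gene's strand with both cores in capitals, come from the I-A alpha and I-E beta chain genes and from the genes of both H2-O chains:
*H2-Aa* (chr17:34287857-34287914, minus strand): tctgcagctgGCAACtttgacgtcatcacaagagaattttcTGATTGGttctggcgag
*H2-Eb1* (chr17:34305766-34305822, plus strand): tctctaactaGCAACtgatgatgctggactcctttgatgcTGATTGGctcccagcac
*H2-Oa* (chr17:34092293-34092350, plus strand): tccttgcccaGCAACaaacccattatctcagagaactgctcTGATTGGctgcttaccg
*H2-Ob* (chr17:34238808-34238862, plus strand): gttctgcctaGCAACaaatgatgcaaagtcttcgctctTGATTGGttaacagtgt
The cores lay 23 to 26 bases apart in these 4 genes and 25 bases apart in *H2-Eb2*, whose match lay inside the annotated gene and is not printed. In *H2-Aa*, *H2-Eb1*, *H2-Oa* and *H2-Ob* the GCAAC core began 76 to 91 bases before the gene start. The windows of *H2-DMa* and *Ifi30* did not hold the pair in these letters.

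The targeted gene, *Trem2*, had log2 values of 7.64 and 7.45 in the *Trem-2*-/- arrays, against 9.58 and 9.74 in the WT arrays. Of 17 measured AM markers, 15 lay above the upper quartile of all probe sets on every array, among them *Itgax* at 12.75 and 12.68 in the *Trem-2*-/- arrays, against 12.84 and 12.84 in the WT arrays. All values are log2 expression values normalized by the authors with the robust multi-array average (RMA), so they compare a gene between arrays but not 1 gene with another. Tests are from limma over all 19946 genes with Benjamini-Hochberg adjustment, called below 0.05. The labels do not state whether replicate pools held different mice, so the p-values rest on a spread between arrays that may be technical only. For any one gene, 0.333 is the smallest two-sided p that exact permutation of 2 against 2 arrays allows.

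Of the 10 genes, 4 rose in *Trem-2*-/- AM and none fell, while across all genes 0.431% were called higher and 0.135% lower (0.567% in either direction). The 4 were *H2-Aa*, *H2-Ab1*, *H2-Eb1* and *Cd74*, which encode chains and invariant chain of the class II molecule itself. No gene fell at an unadjusted p below 0.05 or in significance analysis of microarrays (SAM), the test named in the study's methods, either. By SAM 5 of the 10 genes were higher, against 0.887% of all genes, and at an unadjusted p below 0.05 in limma 6 were higher, against 4.64% of all genes (6.9% were lower). In 7 of the 10 genes both *Trem-2*-/- arrays lay above both WT arrays, which 17.4% of all genes did. The median log2 fold change was 0.35 over the 10 genes and -0.02 over all genes. The 10 genes were chosen with earlier results of these data known, so the shares of all genes are a background and not a test.

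**Figure D1:**
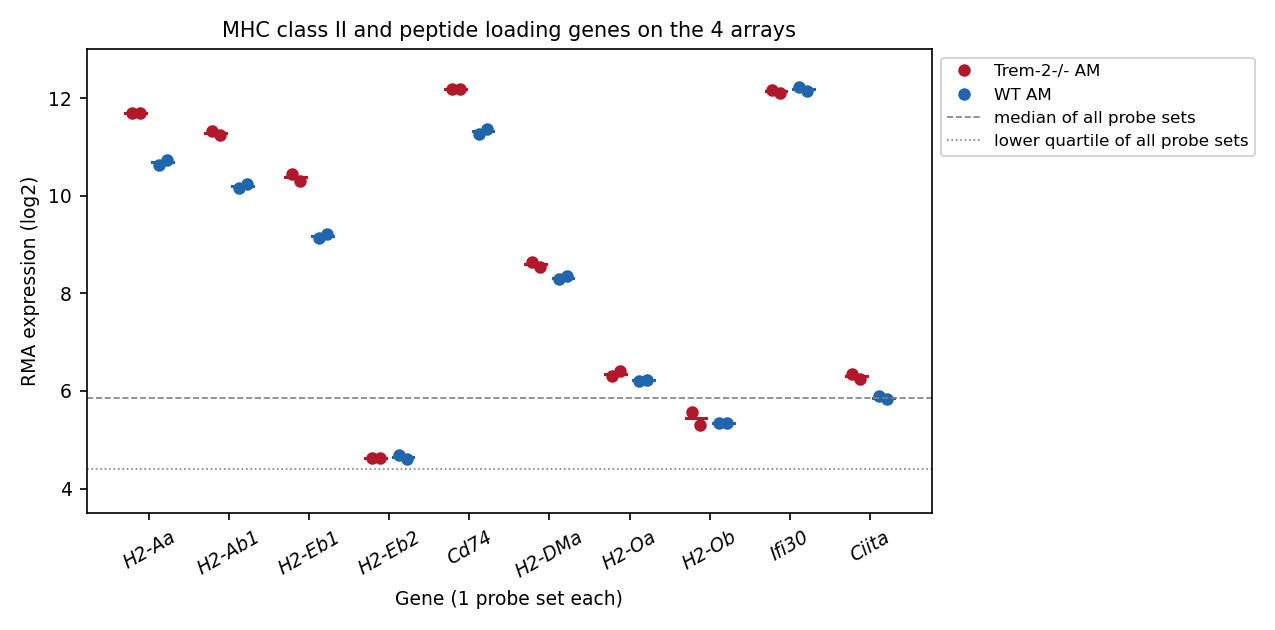
RMA expression on the log2 scale for each of the 10 genes, with points for single arrays and bars for the mean of 2 arrays, *Trem-2*-/- AM in red left of WT AM in blue; grey lines mark the median and lower quartile of all probe sets. Red and blue points stand clear of each other for *H2-Aa*, *H2-Ab1*, *H2-Eb1* and *Cd74* by 0.81 to 1.09, and overlap for *H2-Eb2*, *H2-Ob* and *Ifi30*.

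The chains of I-A and the beta chain of I-E changed by similar amounts. *H2-Aa*, the alpha chain of I-A, had log2 values of 11.70 and 11.70 in the *Trem-2*-/- arrays, against 10.62 and 10.74 in the WT arrays. Both *Trem-2*-/- arrays lay above both WT arrays, by at least 0.96, while the WT arrays differed by 0.12. *H2-Ab1*, the beta chain of I-A, had values of 11.32 and 11.25 in the *Trem-2*-/- arrays, against 10.15 and 10.25 in the WT arrays. *H2-Eb1*, the beta chain of I-E, had values of 10.45 and 10.31 in the *Trem-2*-/- arrays, against 9.14 and 9.22 in the WT arrays. Neither beta chain gene overlapped between genotypes, with gaps of 1.00 for *H2-Ab1* and 1.09 for *H2-Eb1*, against array differences within a genotype of up to 0.14.

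The signal in *Trem-2*-/- AM was 2.03-fold that in WT AM for *H2-Aa* (log2 fold change 1.02 with a standard error of 0.08, limma adjusted p = 0.0070). It was 2.12-fold for *H2-Ab1* (log2 fold change 1.09 with a standard error of 0.08, limma adjusted p = 0.0054) and 2.29-fold for *H2-Eb1* (log2 fold change 1.20 with a standard error of 0.08, limma adjusted p = 0.0045). The 95% intervals of the log2 fold changes, 0.83 to 1.21, 0.89 to 1.28 and 1.00 to 1.40, overlapped, and the differences between these genes were not tested. The call of *H2-Eb1* held with each single array left out (adjusted p up to 0.043 from limma). That of *H2-Ab1* was lost without *Trem-2*-/- replicate 1 (adjusted p = 0.061 from limma), and that of *H2-Aa* without *Trem-2*-/- replicate 1 (0.068) or replicate 2 (0.069).

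*H2-Eb2*, a second beta chain gene beside *H2-Eb1*, had values of 4.63 and 4.63 in the *Trem-2*-/- arrays, against 4.69 and 4.61 in the WT arrays. The genotypes overlapped, and all 4 values lay below the median of all probe sets (5.84 to 5.86) and just above the lower quartile (4.39 to 4.40). Its log2 fold change was -0.02 (95% interval -0.20 to 0.16, adjusted p = 0.94 from limma), and at this dim signal a change in RNA may not show. *H2-Ea*, the I-E alpha chain gene, lay below the lower quartile on all 4 arrays, with values of 3.92 and 4.07 in the *Trem-2*-/- arrays, against 4.19 and 3.99 in the WT arrays.

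Among the loading factors, the invariant chain gene alone passed the test. *Cd74* had log2 values of 12.18 and 12.19 in the *Trem-2*-/- arrays, against 11.27 and 11.37 in the WT arrays. The genotypes were 0.81 apart at the nearest arrays, and the 2 *Trem-2*-/- arrays differed by 0.01. The signal was 1.82-fold that in WT AM (log2 fold change 0.86 with a standard error of 0.08, limma adjusted p = 0.012), and none of the 4 fits that omitted an array called it (adjusted p = 0.051 to 0.11 from limma).

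*H2-DMa*, the alpha chain of the peptide editor H2-DM, had values of 8.65 and 8.54 in the *Trem-2*-/- arrays, against 8.30 and 8.35 in the WT arrays. Its arrays did not overlap either, but the log2 fold change of 0.27 did not pass (95% interval 0.08 to 0.46, unadjusted p = 0.013, adjusted p = 0.29 from limma). The beta chain genes *H2-DMb1* and *H2-DMb2* share a probe set and were left out. *H2-Oa*, the alpha chain of H2-O, had values of 6.30 and 6.42 in the *Trem-2*-/- arrays, against 6.21 and 6.23 in the WT arrays. *H2-Ob*, its beta chain, had values of 5.56 and 5.31 in the *Trem-2*-/- arrays, against 5.34 and 5.35 in the WT arrays. The *Trem-2*-/- arrays straddled the WT arrays for *H2-Ob* and lay narrowly above them for *H2-Oa*. The log2 fold changes were 0.14 for *H2-Oa* (95% interval -0.05 to 0.33, adjusted p = 0.56 from limma) and 0.10 for *H2-Ob* (95% interval -0.15 to 0.34, adjusted p = 0.76 from limma).

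*Ifi30*, encoding GILT, had values of 12.17 and 12.10 in the *Trem-2*-/- arrays, against 12.22 and 12.14 in the WT arrays. These overlapped, at a bright signal, and the 95% interval of the log2 fold change of -0.04 ran from -0.23 to 0.15 (adjusted p = 0.88 from limma). The upper ends of the intervals for *H2-DMa*, *H2-Oa*, *H2-Ob*, *H2-Eb2* and *Ifi30*, 0.15 to 0.46, all lay below the lower end for *Cd74*, 0.68. No interval was widened for multiple testing.

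*Ciita*, the transactivator, had log2 values of 6.36 and 6.25 in the *Trem-2*-/- arrays, against 5.90 and 5.83 in the WT arrays. Both *Trem-2*-/- arrays lay above both WT arrays, by at least 0.34, whereas arrays of a genotype differed by up to 0.11. The log2 fold change was 0.44 (standard error 0.08, 95% interval 0.24 to 0.63, adjusted p = 0.12 from limma), a 1.35-fold signal that did not pass the test. Its side of the threshold depended on the setting. SAM called it higher, as did limma with an intensity trend and robust variance (adjusted p = 0.035) and with only genes whose mean log2 value was 6 or more (adjusted p = 0.020). The other limma settings gave 0.097 to 0.40.

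**Figure D2:**
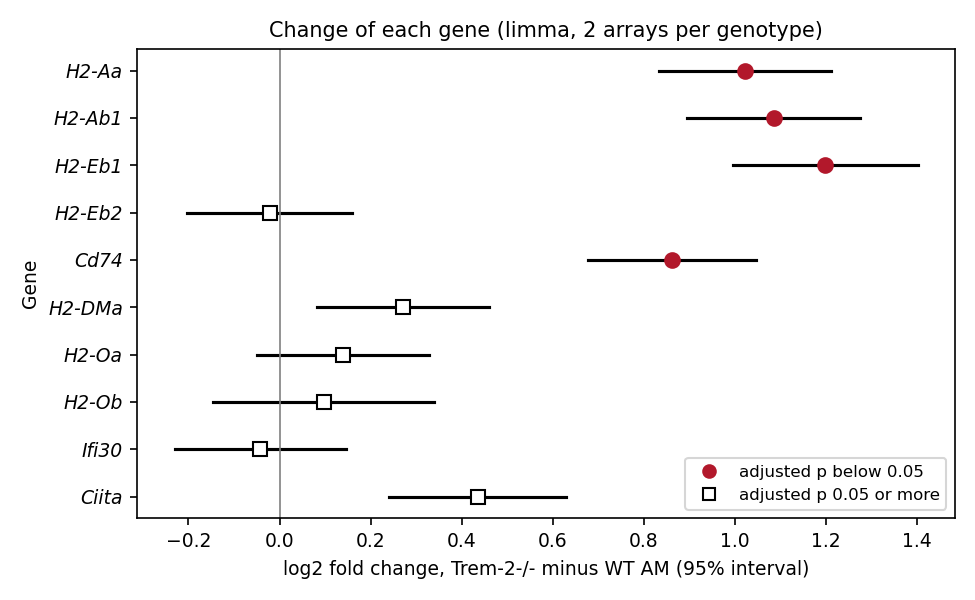
Log2 fold change of each of the 10 genes (positive where higher in *Trem-2*-/- AM), from limma with 2 arrays per genotype; bars are 95% intervals, genes with an adjusted p under 0.05 are red circles, the others open squares. The 4 red circles lie at 0.86 to 1.20, *Ciita* at 0.44 and the other 5 genes between -0.04 and 0.27.

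Of the 10 genes, 7 lie in a run of 12 tested genes on chromosome 17, in the gene order of RefSeq assembly GRCm38.p6. The 3 that rose, *H2-Ab1*, *H2-Aa* and *H2-Eb1*, are adjacent in that order. The 5 other genes in the run are *Brd2*, a chromatin reader, and *Psmb9*, *Tap1*, *Psmb8* and *Tap2*, which make and transport peptides for class I. None of the 5 passed limma, SAM or an unadjusted p below 0.05, with log2 fold changes from -0.02 for *Brd2* to 0.12 for *Psmb9*. The same held for the 5 tested genes on each side of the run, from *Mir219a-1* at -0.11 to *BC051142* at 0.11. *Trem2* is on the same chromosome, with 270 tested genes between it and *H2-Eb2*. Chromosome 17 carried 18 of the 113 called genes, and 936 of the 19856 genes that could be placed on a chromosome. Whether strain-derived sequence around *Trem2* reaches the class II region cannot be told apart from loss of *Trem2* in this design. *Cd74*, *Ciita* and *Ifi30* are on other chromosomes.

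**Figure D3:**
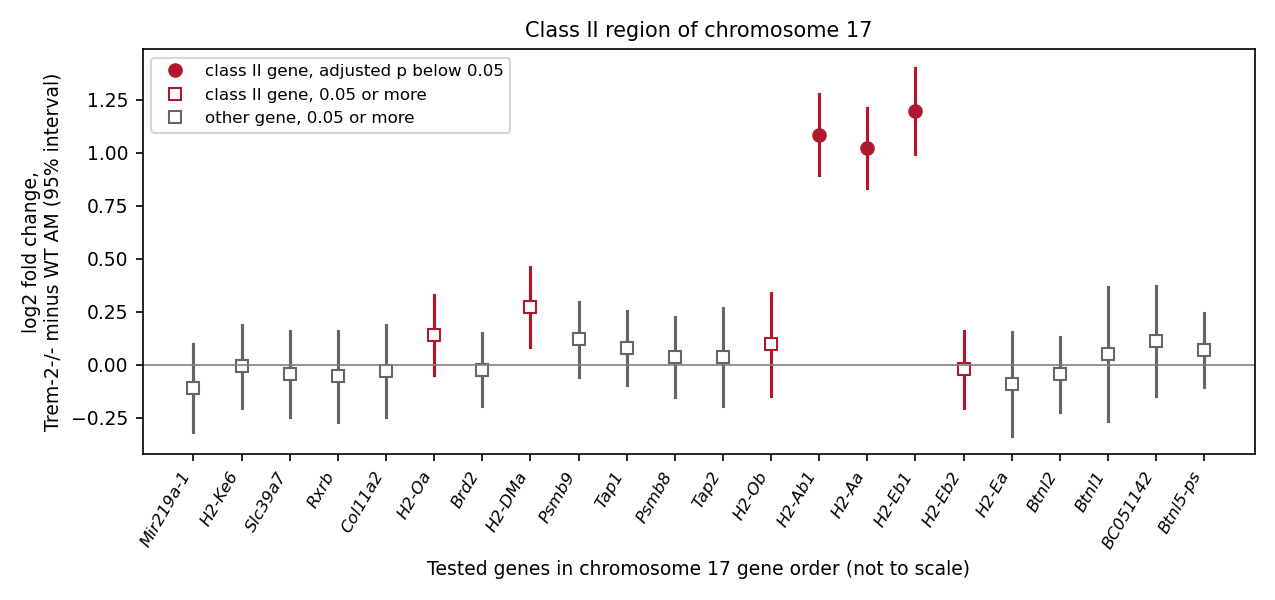
Log2 fold change (positive where higher in *Trem-2*-/- AM) with its 95% interval from limma, for 22 tested genes in chromosome 17 gene order, not to scale; red marks the 7 genes of the set and grey their neighbours, *H2-Ea* included, filled where the adjusted p is below 0.05. The adjacent *H2-Ab1*, *H2-Aa* and *H2-Eb1* lie at 1.02 to 1.20, and the 15 genes that are not class II genes of the set lie between -0.11 and 0.12.

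The genes closest in profile were sought for the 4 called genes, as the root-mean-square distance between log2 values of the 4 arrays after each gene's mean was subtracted. *H2-Aa* and *H2-Ab1* were each other's nearest gene among all genes, at a distance of 0.04. The next nearest to both were *Pla2g7*, a phospholipase gene on chromosome 17, and the chemokine gene *Cxcl3* on chromosome 5. *H2-Eb1* was nearest to *Ptprs*, a receptor phosphatase gene on chromosome 17 (0.06), then *H2-Ab1*, and *Tmem176b* on chromosome 6. *Cd74* was nearest to the leptin receptor gene *Lepr* (0.05), the iron exporter gene *Slc40a1* and the properdin gene *Cfp*, on chromosomes 4, 1 and X. *H2-Aa* ranked at 11 from *Cd74*. *Ciita* ranked at 167 to 179 from the 4 genes and *H2-DMa* at 453 to 461. With 4 arrays, this distance follows mainly the size of the genotype difference.

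In the rest of the pathway no gene passed limma, as 0.567% of all genes did. At that share, lists this short would hold few called genes. At an unadjusted p below 0.05, 4.64% of all genes were higher and 6.9% lower. Of 12 genes of the complex on class II promoters or of its cofactors, none passed limma or SAM, and at an unadjusted p below 0.05 were *Ep300*, a histone acetyltransferase (log2 fold change 0.20), and *Nfyb*, a subunit of the Y box factor NF-Y (-0.21). *Rfx5*, a subunit of the X box factor RFX, had values of 7.54 and 7.64 in the *Trem-2*-/- arrays, against 7.39 and 7.59 in the WT arrays, which overlapped. Of 12 measured genes that act upstream of *Ciita*, none passed limma or SAM. At an unadjusted p below 0.05 were *Irf1*, an interferon-gamma response factor, and the kinase gene *Jak2* (0.23). *Irf1* had values of 9.85 and 9.79 in the *Trem-2*-/- arrays, against 9.42 and 9.59 in the WT arrays, a log2 fold change of 0.32 (adjusted p = 0.27 from limma).

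Of 12 endosomal proteases and their inhibitors, which cut antigen and invariant chain, none passed limma or SAM, and *Ctsl*, encoding cathepsin L, alone had an unadjusted p below 0.05 (log2 fold change -0.20). *Ctss*, encoding cathepsin S, which cleaves the invariant chain, had values of 13.55 and 13.52 in the *Trem-2*-/- arrays, against 13.44 and 13.41 in the WT arrays, a log2 fold change of 0.11 (adjusted p = 0.62 from limma). Of 9 genes for turnover and membrane partners of class II, none passed limma, SAM or an unadjusted p below 0.05. *Marchf1*, a ubiquitin ligase that removes class II from the surface, differed by 0.02. Of 13 genes of class I peptide loading, none passed limma or SAM, and *Psmb10*, an immunoproteasome subunit, alone had an unadjusted p below 0.05 (log2 fold change 0.21). The median log2 fold changes of these 5 lists lay between -0.02 and 0.08, with that of all genes at -0.02. Both *Trem-2*-/- arrays lay above both WT arrays for 9 of the 13 class I loading genes and below them for 1. For the genes upstream of *Ciita* these counts were 6 and 1 of 12, and for the proteases and inhibitors 6 and 4 of 12. They were 4 and 3 of 12 for the promoter complex and 1 and 4 of 9 for turnover and partners. Of all genes, 17.4% lay above and 25.4% below.

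**Figure D4:**
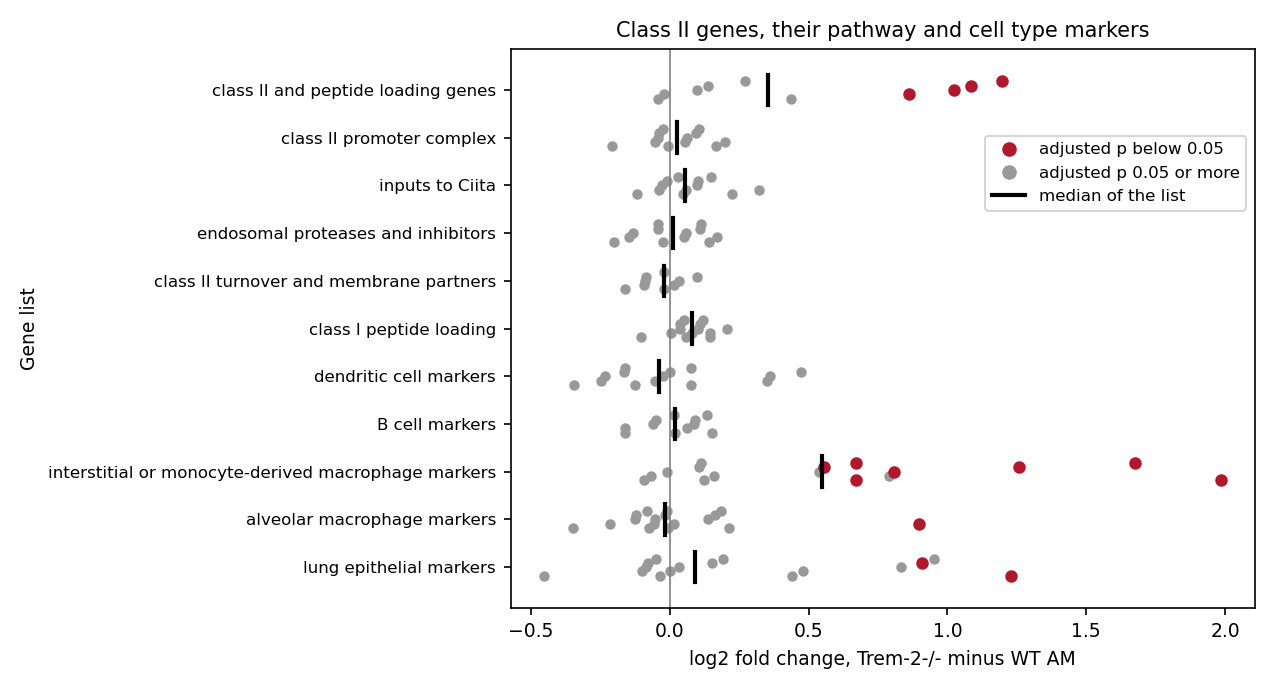
Log2 fold change (positive where higher in *Trem-2*-/- AM) of each measured gene in 11 lists, from 2 arrays per genotype; genes called by limma are red, the others grey, and each black bar is the median of a list. The class II set has 4 red points and a median of 0.35, the 5 pathway lists have none, and markers of interstitial or monocyte-derived macrophages have 7 and a median of 0.55.

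Lavage cells are a bulk population, so more class II RNA per cell and more cells that carry it cannot be told apart. Summed linear signals of a list weight its brightest probe sets most. Dendritic cell markers summed to 705 to 724 in *Trem-2*-/- AM and 705 to 726 in WT AM. These sums hold mainly dim signals. None of the 14 lay above the upper quartile of all probe sets on every array, and 4 lay above the median in both WT arrays. *Clec9a* (log2 fold change -0.34) and *Fscn1* made 24.5% to 29.5% of the sum on each array. None of the 14 passed limma or SAM. At an unadjusted p below 0.05, 3 were higher and 1 lower, where 4.64% and 6.9% of all genes were. Higher were *Fscn1* (log2 fold change 0.47, adjusted p = 0.15 from limma), *Dpp4* (0.35, adjusted p = 0.29 from limma) and *Ccr7* (0.36), and lower was *Batf3* (-0.25). Both *Trem-2*-/- arrays lay above both WT arrays for 3 of the 14 and below them for 5, which 17.4% and 25.4% of all genes did. B cell markers summed to 1862 to 2002 in *Trem-2*-/- AM and 2068 to 2141 in WT AM, of which *Cd22* and *Cd37* made 83.1% to 85.6% on each array. None of the 11 measured passed limma, SAM or an unadjusted p below 0.05, and *Ms4a1*, *Cd79a* and *Ebf1* lay below the lower quartile on all arrays.

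Among 16 measured markers of interstitial or monocyte-derived macrophages, cells with more class II than AM, 7 rose and none fell, against 0.431% and 0.135% of all genes. None of them is a class II or C1q gene. The list was chosen with earlier results of these data known, so its counts are not a test of cell type. SAM called 8 of the 16 higher, against 0.887% of all genes. At an unadjusted p below 0.05, 9 were higher and none lower, against 4.64% and 6.9% of all genes. The largest called changes were in the platelet factor gene *Pf4* (1.98), the apolipoprotein gene *Apoe* (1.67), the membrane protein gene *Tmem176b* (1.26) and the chemokine receptor gene *Ccr2* (0.81). The other 9 markers did not pass limma. Of these, *Tmem176a* (0.79) was called by SAM, and *Fcgr1* (0.54) had an unadjusted p of 0.0032 in limma. Smaller changes were those of *Lyve1* (-0.09), *Folr2* (-0.07), *Maf* (-0.01), *Mertk* (0.11) and *Csf1r* (0.13). The summed signal was 14229 to 14605 in *Trem-2*-/- AM and 10905 to 11110 in WT AM. *Csf1r* and *Mertk*, which limma did not call, made 61.5% to 74.3% of it on each array. *Apoe* had log2 values of 11.17 and 10.98 in the *Trem-2*-/- arrays, against 9.39 and 9.41 in the WT arrays. This sum thus follows a few bright genes and does not describe the whole list. WT AM already gave a signal above the median of all probe sets for 11 of the 16, and *Cd163* lay below the lower quartile on all arrays.

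Of 17 measured AM markers 1 rose in limma and SAM, the carbonic anhydrase gene *Car4* (0.90), and none fell. At an unadjusted p below 0.05, 3 were higher and 2 lower, the keratin gene *Krt79* (-0.35) and *Siglecf* (-0.21). Of all genes, 4.64% were higher and 6.9% lower at that level. Both *Trem-2*-/- arrays lay below both WT arrays for 8 of the 17 and above them for 5, which 25.4% and 17.4% of all genes did. The median log2 fold change of the 17 was -0.02. AM markers summed to 62072 to 63478 in *Trem-2*-/- AM and 62974 to 63751 in WT AM. Of 16 lung epithelial markers limma called 2 higher and none lower, against 0.431% and 0.135% of all genes. The 2 were *Cldn18* (1.23), a tight junction gene, and *Scgb1a1* (0.91), a club cell secretory gene. SAM called 4 higher, with the keratin genes *Krt18* (0.95) and *Krt8* (0.83) as well, against 0.887% of all genes. At an unadjusted p below 0.05 there were 7 higher, among them *Ager* (0.48) and *Sftpc* (0.44). There was 1 lower, the cadherin gene *Cdh1* (-0.45). Of all genes, 4.64% were higher and 6.9% lower at that level. For 7 of the 16 both *Trem-2*-/- arrays lay above both WT arrays, and for 4 below them, against 17.4% and 25.4% of all genes. The median log2 fold change of the 16 was 0.09. Epithelial markers summed to 2322 to 2339 in *Trem-2*-/- AM and 1954 to 2065 in WT AM, of which *Napsa* and *Cdh1* made 37.5% to 50.4% on each array. The part of these cells in the class II change was not tested.

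The 4 calls held under 6 of the 7 other limma settings that used all 4 arrays, and under SAM. With all 35557 rows of the table tested as probe sets, 0 of the 10 genes passed, at an adjusted p of 0.11 to 0.16 for the 4, and 23 probe sets passed in all. In that setting the log2 fold changes were as before, but limma estimated its variance prior from all rows, with 2.19 prior degrees of freedom in place of 4.16, and the unadjusted p of *H2-Eb1* was 0.000124 in place of 5.66e-06. With 1 array left out, 1 gene passed without *Trem-2*-/- replicate 1, 2 without *Trem-2*-/- replicate 2, and 3 without either WT array. The log2 fold changes of the 4 genes then ran from 0.81 for *Cd74* to 1.27 for *H2-Eb1*.

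**Figure D5:**
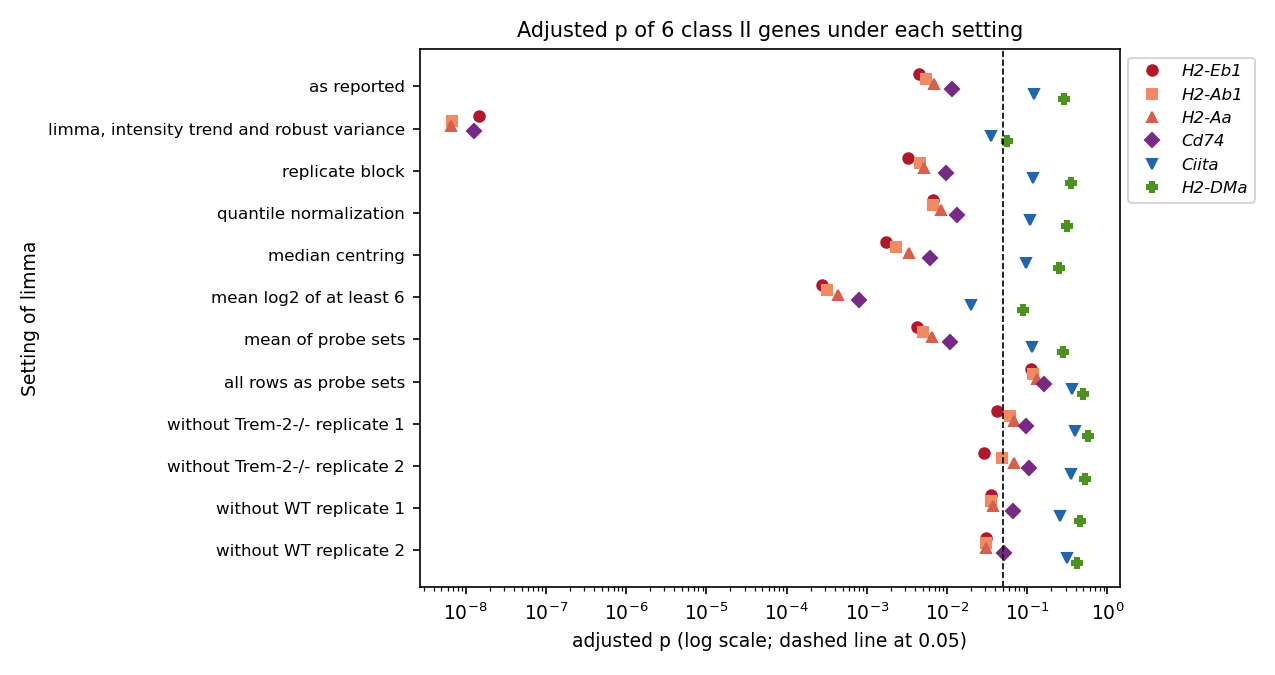
Adjusted p on a log axis for 6 class II genes under 12 settings of limma, with a dashed line at 0.05. *H2-Eb1*, *H2-Ab1*, *H2-Aa* and *Cd74* lie left of the line in all settings that use all 4 arrays except the one with all rows as probe sets, *Ciita* does so in 2 settings and *H2-DMa* in none.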

How the data were processed

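RNA of AM from pooled mice was hybridized to 4 Affymetrix GeneLevel 1.0 ST arrays. The authors combined the arrays, normalized them by RMA and deposited the log2 values, 1 for each array and probe set. RMA equalizes the arrays' distributions and compresses differences at dim signals. The submitters' processing notes name RMA, with no version, and build mm9. Scanner intensities were not used here, so background correction was not varied. Of 23410 annotated probe sets, 21797 had 1 symbol and 1613 several, 12147 rows were unnamed, and 21698 matched RefSeq genes of GRCm38.p6 by identifier, used for names and gene order. Of the probe sets of a gene, the one with the highest mean was kept. Groups and replicate numbers came from the sample labels.

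Tests were two-sided and used limma (version 3.58.1, lmFit, then eBayes) under R 4.3.3, without a replicate term. On simulated data this procedure called 24.4% of genes with a true log2 fold change of 0.5, 93.6% at 1 and 98.8% at 2. Of its calls there, 5.4% were false. A change of about 0.5 or less could thus often be missed. The simulated spread did not depend on signal level, so the shares for bright or dim genes alone may differ. SAM, the methods' test, was rewritten and run at a false-discovery rate of 5% over all 6 array assignments. The 10 genes and all lists were chosen with earlier results of these data known. Named are all 10 genes, up to 4 called genes of each list (or the 2 of lowest p), neighbours in gene order and the 3 nearest profiles. Other list genes were chosen after their values were seen. Alternatives were SAM, an intensity trend with robust variance, a replicate block, quantile normalization, median centring, a minimum mean log2 value of 6, the mean of probe sets, all rows as probe sets and leaving out each array. No library size exists for arrays, and 2 per genotype limit the precision.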

Additional observations from a re-analysis of the deposited data

How the results depend on the processing

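The count of 4 higher genes stayed at 4 or 5 under SAM, an intensity trend with robust variance, quantile normalization, median centring, the mean of probe sets and a minimum mean log2 value of 6, fell to 0 with all rows as probe sets, and was 1 to 3 with 1 array left out. In these fits the lone array of a genotype is assumed to vary like the others. No gene of the set was called lower in any setting. With the replicate number as a block, 4 genes were higher and 129 of all genes were called, so it changed no call among the 10 genes. Same-numbered arrays do not deviate together (r = -0.03 over all probe sets), and the labels do not say that numbers pair them. Of all genes, 113 were called as reported, 196 by SAM, 669 with an intensity trend and robust variance, 357 with that minimum, 23 with all rows as probe sets and 28 to 49 with 1 array left out. Changing the rows refits the variance prior as well as the adjustment, with 5.24 prior degrees of freedom under the minimum of 6, 4.16 as reported and 2.19 with all rows. The cause of the other differences was not tested. Log2 fold changes near 0 changed sign: *H2-Eb2* was at 0.025 under quantile normalization. With 1 array left out, *H2-Eb2* ran from -0.065 to 0.022, *H2-Ob* from -0.028 to 0.222 and *Ifi30* from -0.086 to 0.0004. *H2-Eb2* and *H2-Ob* have no value under the minimum of 6. Dim probe sets such as those of *H2-Eb2* and *H2-Ob* limit what could be detected.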
